A study of Mus musculus with 19 samples.

Results

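The genes studied here are a chosen set of Wnt ligands and Wnt receptors, not all those with RNA in the crypt. They are the ligands Wnt3, Wnt6, Wnt9b and Wnt11, the frizzled receptors Fzd5 and Fzd7, the coreceptors Lrp5 and Lrp6, and the R-spondin receptor Lgr4. They were chosen by name and matched by symbol to Ensembl gene IDs, and all 9 of them were found once among the 55487 genes listed. RNA had been sequenced from small intestinal crypts of 19 C57BL/6 mice, with 1 library per mouse. NT+/+ AL (n = 5) and NT-/- AL (n = 4) were neurotensin (NT) wild-type and knockout mice with food ad libitum, and NT+/+ Fast (n = 5) and NT-/- Fast (n = 5) were mice of the same genotypes fasted for 48 hours. NT is a gut peptide released after feeding, the controls of the study were littermates, and each group held males and females. The protocols of the labels name no pooling of animals. The labels give no age and name no Lgr5 reporter allele. However, the abstract of the study describes its fed and fasted mice as carriers of an Lgr5-EGFP reporter, and its methods also list mice without it. Replicate 5 of NT+/+ Fast is NT+/+ by its title and NT-/- by its genotype label, and it was kept with its title group. Its level of Nts, the NT gene, was 5.43 counts per 1000000 counts of the library (CPM), within the 4.98 to 5.71 CPM of its title group, whereas no other mouse labelled NT-/- exceeded 0.793 CPM. In NT+/+ AL, Nts was 6.75 to 8.59 CPM.

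Wnt ligands are lipid-modified secreted proteins that bind a frizzled receptor and LRP5 or LRP6 at the cell surface, and the complex keeps β-catenin from being degraded so that it can enter the nucleus. R-spondins bound to LGR4 or LGR5 raise the response by removing the ligases RNF43 and ZNRF3, which otherwise clear frizzled and LRP proteins from the membrane. In the small intestine this pathway maintains the stem cells at the crypt base, and Paneth cells next to them are a known epithelial source of WNT3.

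The libraries held 9059457 to 35068711 counts on genes (median, 18541819), and the 2 shallowest were replicates 2 and 4 of NT-/- Fast. The crypt label was checked against marker genes. Summed over 5 epithelial markers, the level was 3020 to 4300 transcripts per 1000000 transcripts (TPM, a level that takes transcript length into account). The 9 Paneth cell markers summed to 62000 to 128000 TPM. In contrast, 7 mesenchymal markers summed to 0.52 to 3.13 TPM, so the libraries were mainly epithelial by their markers. Immune RNA was present, as 6 immune markers had a median sum of 45.6 TPM over the 19 mice. Their single means ran from 1.26 TPM (Cd79a) to 12.4 TPM (Ptprc), a range that holds the 5.54 TPM of Wnt3. By group, the median immune sum was 32.6 TPM in NT+/+ AL, 39.9 TPM in NT-/- AL, 45.6 TPM in NT+/+ Fast and 57.1 TPM in NT-/- Fast. Of the mesenchymal markers, 3 had 0 counts in some mouse. Of the 9 genes, 8 passed the filter on low counts and were tested among 17875 genes. Wnt11 did not pass.

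Wnt3 (ENSMUSG00000000125; GRCm38 chromosome 11, 103774150–103817957, plus strand) and Wnt9b (ENSMUSG00000018486; chromosome 11, 103727364–103749821, minus strand) are neighbors that point away from each other, with 24329 bp between their starts. Wnt6 (ENSMUSG00000033227) lies on chromosome 1 (74771892–74785322, plus strand), Wnt11 (ENSMUSG00000015957) on chromosome 7 (98835112–98855195, plus strand), Fzd5 (ENSMUSG00000045005) on chromosome 1 (64730558–64737751, minus strand), and Fzd7 (ENSMUSG00000041075) on chromosome 1 (59482424–59486955, plus strand). Lrp5 (ENSMUSG00000024913) lies on chromosome 19 (3584828–3686564, minus strand), Lrp6 (ENSMUSG00000030201) on chromosome 6 (134446476–134566965, minus strand), and Lgr4 (ENSMUSG00000050199) on chromosome 2 (109917647–110014257, plus strand). RefSeq promoters (GRCm38.p6) were found for 7 of the 9 genes. The 250 bases before the start of transcription are shown for the neighbors Wnt3 and Wnt9b, which differ widely in level, and for Fzd5, the most abundant frizzled receptor. Each runs 5′ to 3′ on the gene's strand, from chr11:103773925-103774174 for Wnt3, chr11:103749822-103750071 for Wnt9b, and chr1:64737751-64738000 for Fzd5. By the Ensembl annotation, the last bases of the Wnt3 window already lie inside the gene. Capitals mark the GC box GGGCGG or its reverse complement CCGCCC.
Wnt3: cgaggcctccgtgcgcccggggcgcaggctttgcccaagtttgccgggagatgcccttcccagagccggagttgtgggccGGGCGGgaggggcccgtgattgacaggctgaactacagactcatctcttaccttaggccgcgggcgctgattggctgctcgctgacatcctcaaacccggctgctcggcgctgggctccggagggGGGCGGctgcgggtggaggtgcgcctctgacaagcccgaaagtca
Wnt9b: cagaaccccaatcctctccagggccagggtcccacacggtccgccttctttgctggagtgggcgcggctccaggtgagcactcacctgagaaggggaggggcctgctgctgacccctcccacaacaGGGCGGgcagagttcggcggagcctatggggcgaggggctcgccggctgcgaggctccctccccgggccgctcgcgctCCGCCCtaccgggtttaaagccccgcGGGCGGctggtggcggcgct
Fzd5: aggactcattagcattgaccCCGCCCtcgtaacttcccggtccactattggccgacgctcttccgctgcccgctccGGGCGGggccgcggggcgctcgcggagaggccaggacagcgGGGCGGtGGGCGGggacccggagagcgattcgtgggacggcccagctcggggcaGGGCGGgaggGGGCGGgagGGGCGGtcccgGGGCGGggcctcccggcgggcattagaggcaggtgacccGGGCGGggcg

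The Wnt3 and Wnt9b windows are much alike in base composition, with 68.0% and 72.0% G and C and 22 CpG sites each, although their RNA levels differ widely. Fzd5 had 9 GC boxes on both strands together, Wnt9b had 3, and Wnt3 had 2. A GC box occurred in 6 of the 7 genes (6 of their 8 promoters) and in 32.7% of all 32851 RefSeq promoters of the same length. The promoters of the 7 genes were richer in G and C than most. They had 55.6% to 79.6% G and C and 10 to 37 CpG sites, against medians of 52.4% and 6 over all promoters. The part of base composition in the motif counts was not tested. The other motifs searched on both strands were TATAAA (reverse TTTATA), found in 1 of 7 genes and 12.4% of all promoters, and CCAAT (reverse ATTGG), found in 5 of 7 genes and 33.8% of all. The TCF motif CTTTGAT (reverse ATCAAAG) was found in 1 of 7 genes, Wnt11, and in 3.21% of all promoters. These are matches of letters without overlap, not tests of binding.

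To ask how much of each component the crypt makes, the deposited TPM of the 9 genes was compared within mice. Lgr4 and Fzd5 had the highest levels, followed by the coreceptors, then by Fzd7 and Wnt3, with the remaining ligands far below. This order was much the same in the 4 groups, as the plot of TPM by gene shows.

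**Figure D1:**
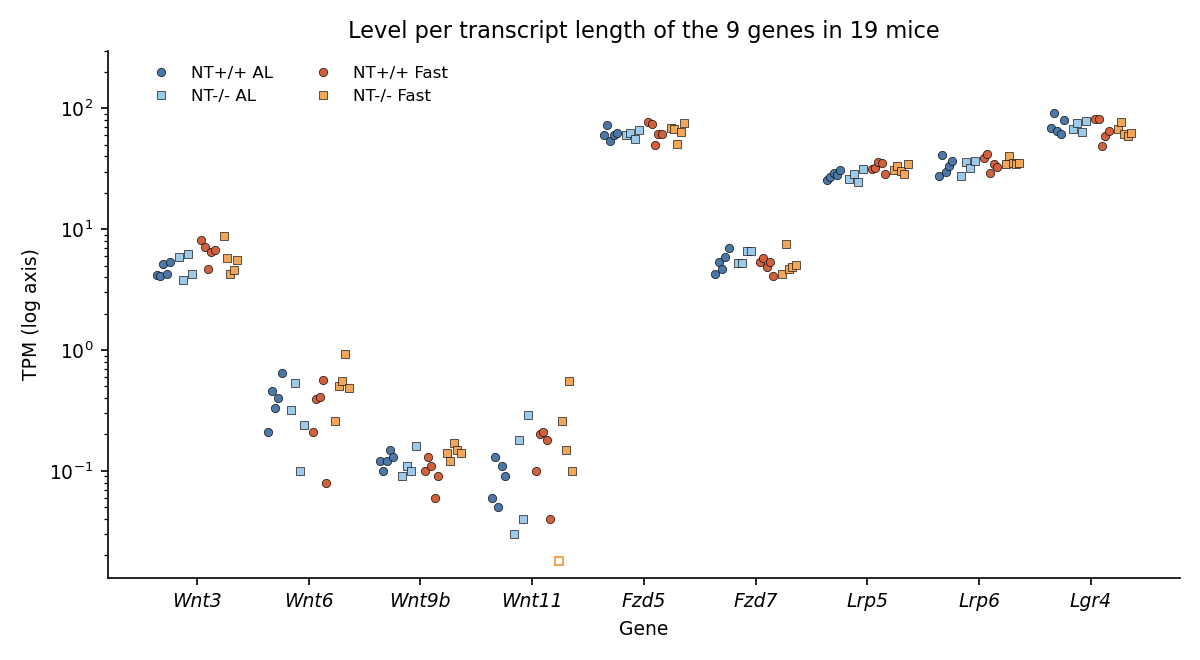
Level per transcript length (TPM, log axis) of each gene in each of the 19 mice, with 1 point per mouse and color and shape for the group. The hollow square at the bottom is the NT-/- Fast mouse in which Wnt11 was listed at 0. Fzd5 and Lgr4 lie highest, and Wnt6, Wnt9b and Wnt11 lie below 1 TPM in every mouse.

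WNT3 is the canonical ligand best known from Paneth cells. Wnt3 had 4.59 ± 0.598 TPM (SD, n = 5) in NT+/+ AL, 5.06 ± 1.23 TPM (n = 4) in NT-/- AL, 6.65 ± 1.27 TPM (n = 5) in NT+/+ Fast and 5.78 ± 1.83 TPM (n = 5) in NT-/- Fast. Across all mice it ranged from 3.81 to 8.84 TPM. Its RNA was the largest share of the 19 Wnt ligands, with a median of 60.3% of their summed TPM (range, 49.3%–78.9%). The highest mean share after it belonged to Wnt2b (17.3%), a ligand known mainly from the mesenchyme around crypts.

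The other ligands were at the edge of detection. Wnt6, Wnt9b and Wnt11, all reported from epithelial cells in several organs, had a mean of 0.399, 0.121 and 0.146 TPM over the 19 mice and shares of 4.55%, 1.39% and 1.65% of the ligand RNA. Wnt6 had 3 to 18 counts per mouse, and Wnt9b had 4 to 14. Wnt11 had 0 to 6 counts per mouse, in all 12 in NT+/+ AL, 14 in NT-/- AL, 18 in NT+/+ Fast and 15 in NT-/- Fast. The mouse with 0 counts, replicate 1 of NT-/- Fast, could have had up to 0.16 CPM, the level of 3 counts in that library. With no filter on low counts, edgeR called Wnt11 in 0 of the 6 comparisons. The unadjusted p was 0.248 for fasting in NT+/+ mice and 0.225 for the mean of the genotypes, and 0 of the 6 were under 0.05. A low gene overlaps Wnt6 on the other strand (Gm29539, 29 counts over all mice against 194 for Wnt6), and the strand setting of the counting was not stated.

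FZD5 is a frizzled receptor known to be needed in Paneth cells, and FZD7 is one known from crypt base stem cells. Fzd5 RNA outweighed Fzd7 RNA in every mouse: it was 50.1 to 77.7 TPM, against 4.11 to 7.49 TPM for Fzd7. Of the summed TPM of the 10 frizzled genes, Fzd5 made up 76.8% ± 2.6 (SD, n = 19) and Fzd7 6.59% ± 1.14. Fzd6 and Fzd4, which are not among the genes studied, had mean shares close to that of Fzd7 (5.34% and 4.4%). The Fzd5 share kept within 71.2% to 80.7%, a narrower range than that of the Wnt3 share of the ligands. Fzd5 had 3267 to 13794 counts per mouse and Wnt3 had 119 to 609. The part of counting error in the wider range was not tested. RSEM gave Fzd5 fractional expected counts in 19 mice, which means that some of its reads also fit another gene.

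LRP5 and LRP6 are single-pass coreceptors that form a pair of close relatives. Lrp6 was 27.7 to 42.1 TPM and Lrp5 24.8 to 36.1 TPM, and Lrp6 was higher than Lrp5 in 17 of 19 mice, by a mean ratio of 1.16. The exceptions were 2 NT+/+ Fast mice. LGR4, the broadly expressed R-spondin receptor, had 48.5 to 91.1 TPM and made up 88.3% ± 2.15 (SD, n = 19) of the summed TPM of Lgr4, Lgr5 and Lgr6.

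Some neighbors in the order did not differ beyond their spread. Lgr4 exceeded Fzd5 in 5 of 5 NT+/+ AL and 4 of 4 NT-/- AL mice, but in only 3 of 5 NT+/+ Fast and 2 of 5 NT-/- Fast mice. Wnt3 exceeded Fzd7 in 1 of 5 NT+/+ AL, 1 of 4 NT-/- AL, 4 of 5 NT+/+ Fast and 2 of 5 NT-/- Fast mice. The mean of Fzd7 was above that of Wnt3 in both ad libitum groups and below it in both fasted groups, although in NT-/- Fast most mice had more Fzd7 and replicate 1 had 8.84 TPM of Wnt3 against 4.26 TPM of Fzd7. The ranges of Lrp6 and Lrp5 overlapped in every group, as did those of Wnt9b and Wnt11, and Wnt6 overlapped with the next lower ligand in 3 of 4 groups. Between Fzd5 and Lrp6, Lrp5 and Fzd7 or Wnt3, and Fzd7 or Wnt3 and Wnt6, the TPM ranges did not overlap in any group.

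The next question was whether fasting changed these genes, and whether it did so in each genotype. Counts were scaled to CPM and tested with edgeR's quasi-likelihood test, with p values adjusted over all 17875 genes and called at an adjusted p under 0.05. In NT+/+ mice 1 of the 8 genes tested was higher in fasted mice, Lrp5, and none was lower. Of all genes tested in NT+/+ mice, 21.6% passed the threshold (11.2% were higher after fasting and 10.4% were lower). For 2 of the 8 genes, against 34.1% of all genes, the unadjusted p was under 0.05. In NT-/- mice edgeR called 0 of the 8, against 25.2% of all genes (12.5% higher and 12.6% lower), and DESeq2 also called 0. There, 2 of the 8 had an unadjusted p under 0.05, against 36.5% of all genes. In the mean of both genotypes, Lrp5 alone was called, against 39.4% of all genes (19.2% higher and 20.2% lower), and 2 of the 8 had an unadjusted p under 0.05, against 47.4% of all genes. With the number that pairs the mice by file name as a block, 3 of the 8 were called in this mean (Wnt3, Lrp5 and Lrp6) and 2 in NT+/+ mice (Wnt3 and Lrp5). More of the 17875 genes were called with that block too. In the mean 3855 were higher and 4397 lower, and in NT+/+ mice 2683 were higher and 2801 lower. With both directions counted together, the share of the 8 genes was above that of all genes in none of these comparisons. All libraries are bulk RNA, in which fewer cells of a type and less RNA per cell cannot be told apart.

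**Figure D2:**
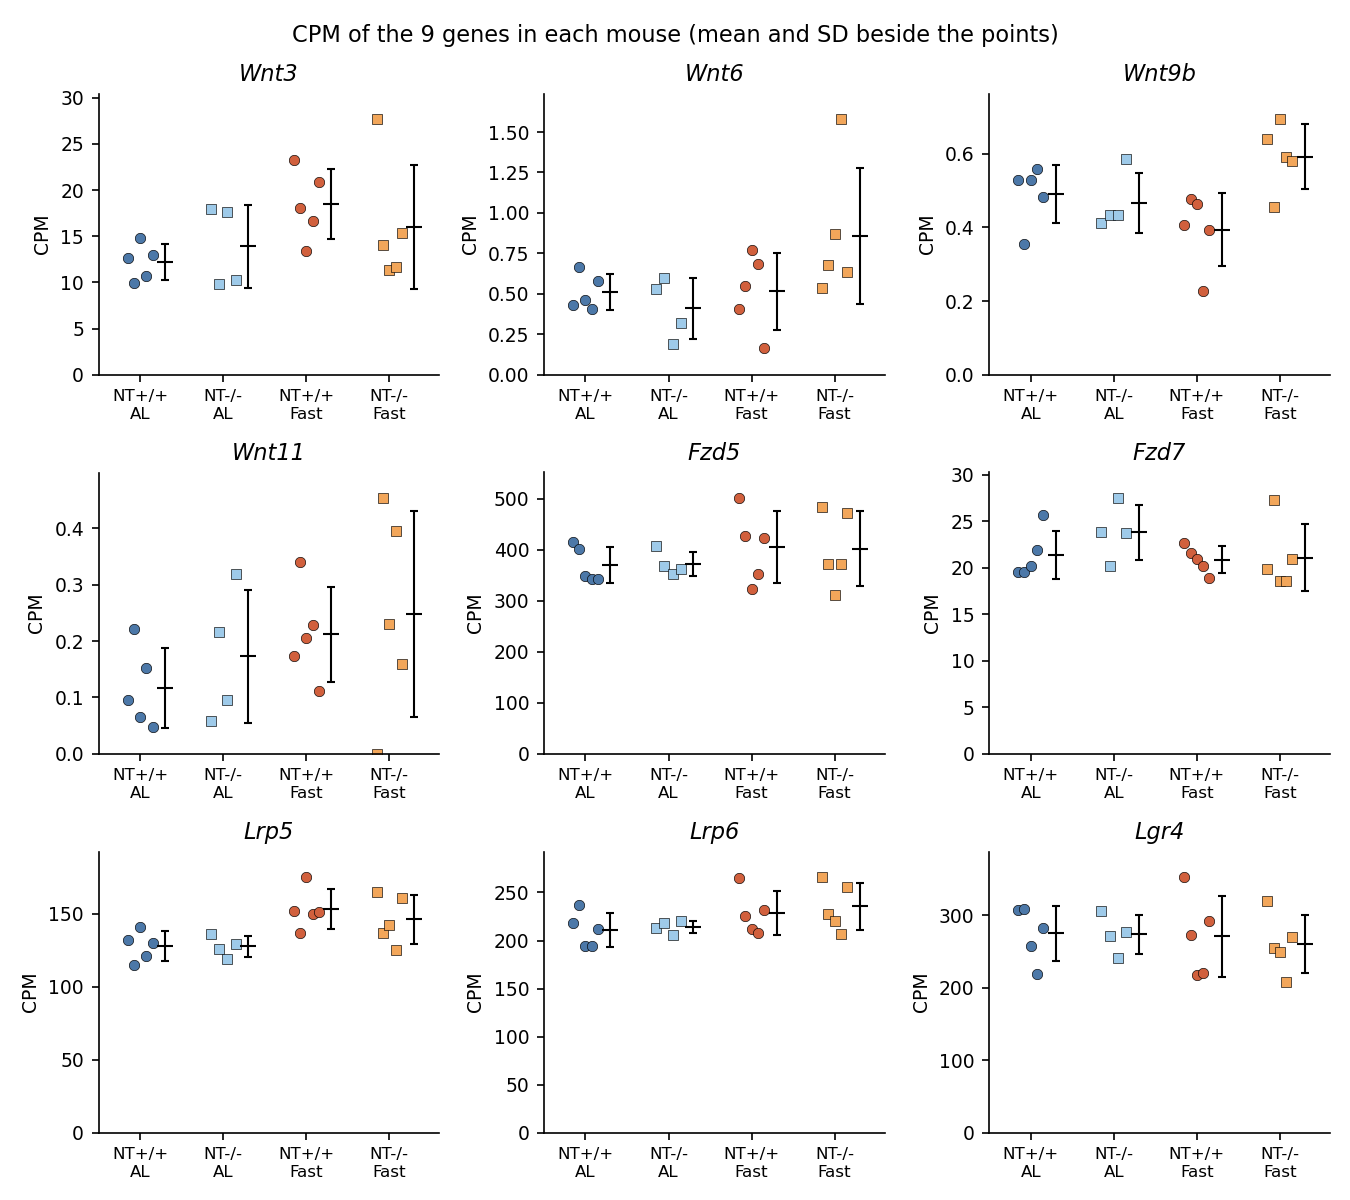
CPM of each gene in each mouse by group, with 1 point per mouse and the mean and SD beside the points; every vertical axis starts at 0. For Lrp5, 4 of 5 NT+/+ Fast and 4 of 5 NT-/- Fast mice lie above all ad libitum mice of their genotype, and for Wnt3, 4 of 5 NT+/+ Fast mice do.

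Lrp5 had 132, 115, 141, 121 and 130 CPM in the NT+/+ AL mice and 152, 137, 175, 150 and 151 CPM in the NT+/+ Fast mice (replicates 1 to 5 in turn). Thus 4 of the 5 fasted mice lay above every ad libitum mouse, and replicate 2 lay within the ad libitum range. The fold change was 1.20 (95% confidence interval, 1.06–1.35; log2, 0.26 ± 0.08 SE; edgeR adjusted p = 0.0277). The call was lost without replicate 2 of NT+/+ AL (adjusted p = 0.0733), without replicate 4 of NT+/+ AL (0.0627), without replicate 3 of NT+/+ Fast (0.0812), and with no filter on low counts (0.0807). Over the alternatives that kept every mouse or left out both shallow libraries, the adjusted p was 0.00441 to 0.0807.

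In NT-/- mice Lrp5 had 136, 126, 119 and 129 CPM with food and 165, 137, 142, 125 and 161 CPM after the fast. Again 4 of 5 fasted mice exceeded all ad libitum mice, but replicate 4, which is among the shallowest libraries, lay inside their range. The log2 fold change was 0.20 ± 0.09 SE (fold, 1.15; 95% confidence interval, 1.01–1.30; edgeR adjusted p = 0.111). Without that mouse it was 0.25 and was called (adjusted p = 0.045), and without both shallow libraries it was 0.29 (adjusted p = 0.0274). The adjusted p was 0.0274 to 0.305 over the alternatives. The effect of fasting on Lrp5 did not differ detectably between the genotypes (difference in log2, −0.07; 95% confidence interval, −0.32 to 0.18; adjusted p = 1). Averaged over the genotypes it was 0.23 ± 0.06 SE on the log2 scale (edgeR adjusted p = 0.00488), and 0.20 to 0.25 with any 1 mouse left out. By the number that mice share in their titles, the fasted mouse was higher in 5 of 5 NT+/+ pairs, by 0.21 to 0.31 on the log2 scale, and in 3 of 4 NT-/- pairs (−0.05 to 0.28). By the file number it was higher in 4 of 4 NT-/- pairs (0.07 to 0.32).

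Lrp6 showed a smaller difference of the same sign. It was 194 to 237 CPM in NT+/+ AL, 208 to 265 CPM in NT+/+ Fast, 206 to 220 CPM in NT-/- AL and 207 to 266 CPM in NT-/- Fast. In NT-/- mice, 4 of 5 fasted mice were above every ad libitum mouse, whereas in NT+/+ mice 1 of 5 was. The log2 fold change was 0.11 ± 0.08 SE in NT+/+ and 0.14 ± 0.09 SE in NT-/- mice, and neither was called (edgeR adjusted p = 0.357 and 0.282). The mean over the genotypes was 0.12 ± 0.06 SE (adjusted p = 0.107). Mice of different groups share a number in their file names. With this number as a block, Lrp6 was called (0.13; adjusted p = 0.0192), as it was without the 2 shallow libraries (0.16; adjusted p = 0.0494), and the adjusted p was 0.0192 to 0.286 over the alternatives.

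Of the ligands studied, Wnt3 was the one with counts enough to compare. It had 12.7, 9.96, 14.8, 10.7 and 13.0 CPM in NT+/+ AL and 23.3, 18.1, 13.4, 16.7 and 20.9 CPM in NT+/+ Fast mice. All but replicate 3 of the fasted mice exceeded every ad libitum mouse. The fold change was 1.51 (95% confidence interval, 1.08–2.11; log2, 0.60 ± 0.23 SE), and the adjusted p of 0.0728 missed the threshold. With the shared number as a block, Wnt3 was called: the log2 fold change was 0.58 with the file number (adjusted p = 0.0314) and 0.59 with the title number (adjusted p = 0.0214). It was also called by DESeq2 (adjusted p = 0.0463), with only the groups compared in the fit (0.0164), and without replicate 3 of NT+/+ Fast (0.69; adjusted p = 0.0486). Over the alternatives the adjusted p was 0.0164 to 0.125.

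In NT-/- mice Wnt3 spread more widely. It had 18.0, 9.80, 17.6 and 10.3 CPM in NT-/- AL and 27.7, 14.1, 11.3, 11.7 and 15.4 CPM in NT-/- Fast. The ad libitum mice fell into a higher and a lower pair, and 1 fasted mouse, replicate 1, stood above all others. The log2 fold change was 0.21 ± 0.25 SE (edgeR adjusted p = 0.588) and was −0.09 without that mouse (adjusted p = 0.80). The difference between the effects of fasting in the 2 genotypes was −0.39 on the log2 scale (95% confidence interval, −1.09 to 0.32; adjusted p = 1), so that the larger value in NT+/+ mice was not shown to differ from the one in NT-/- mice. In the mean of the genotypes the value was 0.40 ± 0.17 SE (adjusted p = 0.0651), and it was called with either number as a block (0.40 with the file number, adjusted p = 0.0278; 0.38 with the title number, adjusted p = 0.029). The mean was also called by DESeq2 (0.41; adjusted p = 0.0405), without the 2 shallow libraries (0.49; adjusted p = 0.04), and without any of replicates 1 and 3 of NT-/- AL, 3 of NT+/+ Fast, and 3 and 4 of NT-/- Fast (0.45 to 0.48). Without replicate 1 of NT-/- Fast it fell to 0.25 (adjusted p = 0.155), the lowest value with 1 mouse left out. Its adjusted p was 0.0278 to 0.0823 over the alternatives and 0.0396 to 0.155 with 1 mouse left out.

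Wnt6 and Wnt9b rested on few counts. Wnt6 had 0.531, 0.595, 0.193 and 0.320 CPM in NT-/- AL and 0.534, 0.681, 0.867, 1.58 and 0.634 CPM in NT-/- Fast. Although 4 of 5 fasted mice lay above all ad libitum mice, the log2 fold change of 1.00 ± 0.41 SE was not called (edgeR adjusted p = 0.0795), and it was 0.01 ± 0.39 SE in NT+/+ mice. There Wnt6 was 0.406 to 0.667 CPM with food and 0.168 to 0.772 CPM after the fast, so the fasted range enclosed the other. Wnt9b was 0.356 to 0.558 CPM in NT+/+ AL and 0.413 to 0.586 CPM in NT-/- AL. It had a log2 fold change of −0.31 ± 0.25 SE in NT+/+ and 0.37 ± 0.26 SE in NT-/- mice. Neither was called (edgeR adjusted p = 0.53 and 0.344).

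The remaining receptors differed little. Fzd5 was 343 to 415 CPM in NT+/+ AL and 322 to 501 CPM in NT+/+ Fast, with a log2 fold change of 0.13 ± 0.12 SE, and 353 to 407 CPM in NT-/- AL and 312 to 484 CPM in NT-/- Fast, with 0.11 ± 0.13 SE. The fasted range enclosed the ad libitum range in each genotype. Fzd7 was 19.5 to 27.5 CPM in ad libitum and 18.6 to 27.3 CPM in fasted mice, and Lgr4 was 219 to 309 CPM and 208 to 353 CPM. For Fzd7 the log2 fold change was −0.04 (95% confidence interval, −0.27 to 0.20) in NT+/+ and −0.18 (−0.42 to 0.07) in NT-/- mice. For Lgr4 it was −0.02 (−0.30 to 0.26) and −0.07 (−0.37 to 0.22).

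**Figure D3:**
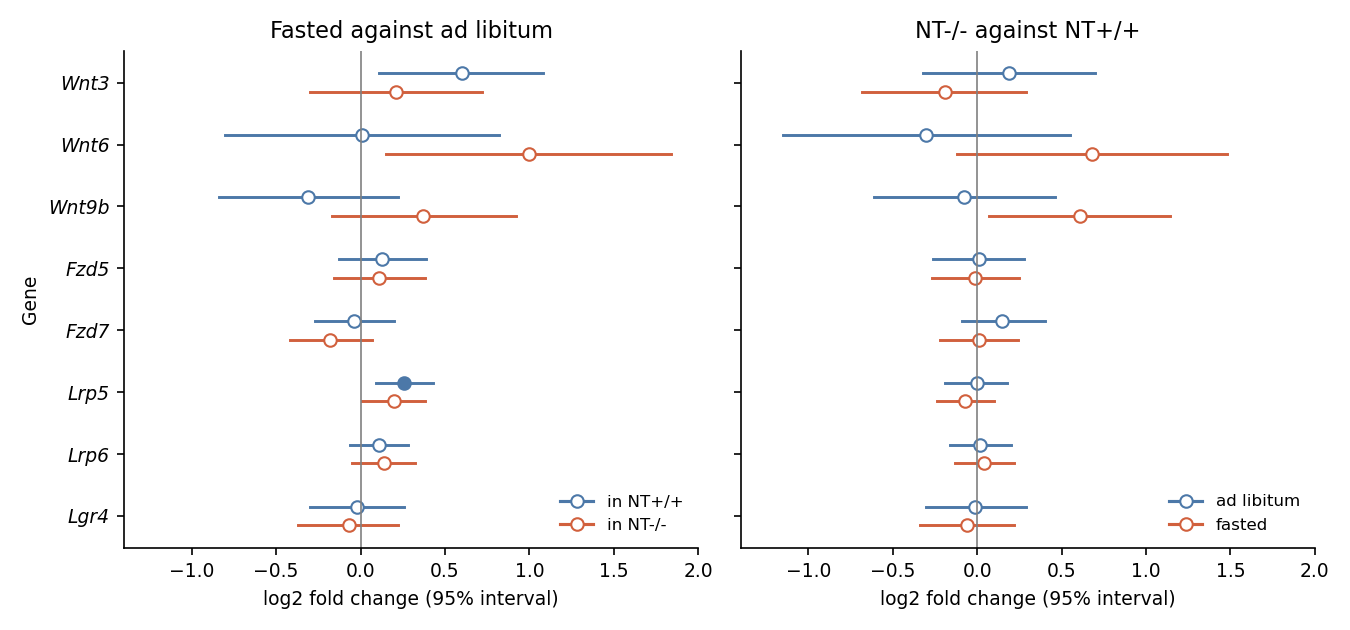
Log2 fold change with its 95% confidence interval for the 8 tested genes, at left for fasted against ad libitum mice in each genotype and at right for NT-/- against NT+/+ mice in each diet. Filled circles passed an adjusted p of 0.05: this is Lrp5 in fasted NT+/+ mice alone. The intervals of the receptors are narrow and those of Wnt6 and Wnt9b wide.

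The study asked what loss of NT does to crypts in each diet, so NT-/- mice were also compared with NT+/+ mice. By edgeR, 0 of the 8 genes were called with food ad libitum, after fasting, or in the difference between the effects of fasting, and 0 had an unadjusted p under 0.05. DESeq2 also called 0 of them. Over all genes 0.00559% were called in each diet, which is 1 gene, Nts itself, and 0% in the difference. An unadjusted p under 0.05 was reached by 1.67% of all genes ad libitum, 9.14% after fasting and 2.71% in the difference. For the coreceptors the intervals were narrow. The log2 fold change of Lrp5 was 0.00 (95% confidence interval, −0.19 to 0.18) ad libitum and −0.07 (−0.24 to 0.10) after fasting, and that of Lrp6 was 0.02 (−0.16 to 0.20) and 0.04 (−0.13 to 0.22). Fzd5 (0.01 and −0.01), Fzd7 (0.15 and 0.01) and Lgr4 (−0.01 and −0.06) were likewise near 0 on the log2 scale in both diets.

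The largest genotype values were those of the scarce ligands in fasted mice. Wnt9b had 0.406, 0.478, 0.463, 0.228 and 0.392 CPM in NT+/+ Fast and 0.641, 0.454, 0.694, 0.592 and 0.581 CPM in NT-/- Fast. Hence 4 of the 5 NT-/- mice lay above every NT+/+ mouse. These values stand for 4 to 9 counts per mouse in NT+/+ Fast and 4 to 12 in NT-/- Fast. The log2 fold change was 0.61 ± 0.26 SE (edgeR adjusted p = 0.55). Its interval excludes 0 in the plot of fold changes while its unadjusted p was 0.0512, since edgeR does not let a p value fall below that of a test with counting error only. The adjustment over all genes then took it to 0.55. For Wnt6 the value was 0.68 ± 0.38 SE (edgeR adjusted p = 0.635), and the NT-/- mouse was higher in 5 of 5 same-numbered pairs. It was 0.39 to 0.89 with 1 mouse left out, lowest without replicate 4 of NT-/- Fast, and 0.23 with the mouse of disagreeing labels moved to NT-/- Fast. Wnt3 was −0.19 ± 0.23 SE in fasted and 0.19 ± 0.24 SE in ad libitum mice.

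The receptors were also compared with each other across mice, after the mean of each group was subtracted. Fzd5, Lrp6 and Lgr4 went up and down together between mice of the same group: r was 0.90 between Lrp6 and Lgr4, 0.83 between Fzd5 and Lrp6, and 0.80 between Fzd5 and Lgr4 (Pearson, log2 CPM, 19 mice). Lrp5 did not share this pattern (r, 0.16 to 0.24 with these 3), nor did Fzd7 (−0.03 to 0.01). Wnt3 had r of 0.61 with Fzd5 and 0.55 with Lgr4, and −0.56 with Wnt6. Among the mice numbered 1 in the file names, Fzd5 was the highest of its group in 4 of 4 groups, and Wnt3 and Lgr4 in 3 of 4. These are descriptions over libraries that share depth and normalization, and the sources do not say what the number stands for.

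**Figure D4:**
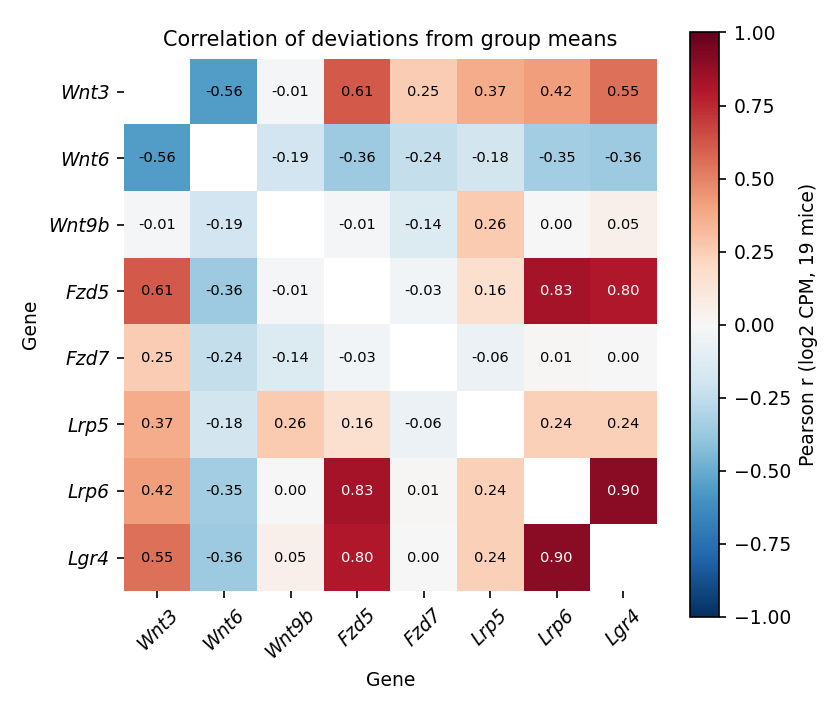
Pearson correlation between the 8 tested genes of their deviations from the group means (log2 CPM, 19 mice), with color for r. The red block at the lower right joins Lrp6 and Lgr4, which both join Fzd5, and Fzd7 has r near 0 with these 3.

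For each tested gene but Wnt9b, the genes with the most similar pattern over the 19 mice were sought among 13070 genes of at least 1 log2 CPM. The closest pair of all was Lrp5 and Nucb1, a calcium-binding protein of the Golgi (r = 0.96), followed by Lrp5 and Ncln (nicalin, a membrane protein of the endoplasmic reticulum; r = 0.93) and Wnt3 and Habp2, a plasma protease (r = 0.92). Wnt3 also resembled Fam117a (0.89). Fzd5 was most like Psap, the precursor of lysosomal saposins (0.91), and Larp4b (0.87). Lrp6 was most like the kinase gene Hipk3 (0.89) and Phf3 (0.87), and Lgr4 was most like the tankyrase gene Tnks2 (0.83) and Ing1 (0.83). Fzd7 had weaker likenesses, to Atf3 (0.68) and Med23 (0.67). Those of Wnt6, to Il17ra (0.83) and Rnf167 (0.78), rest on a few counts per mouse. All these likenesses were picked as the highest among the 13070 genes over 19 mice, with no group mean subtracted.

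Markers of several cell types moved with fasting and are given beside these results. The summed TPM of 4 proliferation markers was 310 to 410 in ad libitum and 199 to 293 in fasted mice, without overlap, and 4 of 4 fell in the mean of the genotypes. The 8 villus enterocyte markers summed to 968 to 3230 TPM in ad libitum and 2770 to 7630 TPM in fasted mice, and 8 of 8 rose. Among them, Fabp1, a fatty acid-binding protein, rose by 2.07 on the log2 scale (edgeR adjusted p = 2.1e-08). Of the 9 Paneth cell markers 1 fell, Defa17, and 8 were not called. Of the 4 stem cell markers 2 fell and 2 were not called, with log2 values from −0.78 to 0.37. Of the 6 goblet cell markers 4 fell and 2 were not called (−1.87 to 0.16). Of the 6 immune markers 0 were called (−0.63 to 0.69), with a median of 0.52 on the log2 scale. For 3 of these 6 the edgeR unadjusted p was under 0.05 in the mean of the genotypes, against 47.4% of all genes. Over all genes, 19.2% were higher and 20.2% lower in this mean. Over the 19 mice, Lrp5 had r of −0.73 with the proliferation markers, −0.58 with the goblet cell markers and 0.45 with the villus markers. Wnt3 had r of 0.72 with the Paneth cell markers and −0.63 with smooth muscle markers. The Paneth cell markers were not particular to Wnt3, as Lgr4 had r of 0.65 and Fzd5 0.51 with them. These values were picked from the correlations of the 8 tested genes with every marker list. No group mean was subtracted for them, so the differences between ad libitum and fasted mice enter these r. The part of these cell types in the differences of Lrp5, Wnt3 or the pathway genes below, among them Tcf7 and Lef1, was not tested.

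Genes around the receptors were counted from lists of the pathway, which hold 92 genes besides the 9. Of these, 60 were tested, and in the mean of the genotypes 17 were higher and 9 lower in fasted mice (43.3%, against 39.4% of all genes). In NT+/+ mice 13 were higher and 2 lower (25.0%, against 21.6% of all genes), and in NT-/- mice 6 were higher and 5 lower (18.3%, against 25.2% of all genes). None was called between the genotypes or in the difference between the effects of fasting. The values that follow are log2 fold changes of fasting in the mean of the genotypes, tested with edgeR.

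Among 15 other ligands, 3 were tested (Wnt2b, Wnt4 and Wnt5a) and none was called. Among the 8 other frizzled genes, Fzd4 rose by 0.63 ± 0.11 SE (adjusted p = 0.000173) and Fzd2 fell by 0.62 (adjusted p = 0.0488), with 5 of the 7 tested not called. Fzd4 was 12.5 to 19.3 CPM in ad libitum and 19.5 to 33.5 CPM in fasted mice. Ror2, a receptor for noncanonical Wnt signals, rose by 0.68 ± 0.09 SE (adjusted p = 4.12e-06), whereas Ryk and Ptk7 were not called. On the same scale Fzd5 had 0.12 ± 0.09 SE and Fzd7 −0.11 ± 0.08 SE.

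On the R-spondin side, the ligase genes Rnf43 and Znrf3 rose by 0.36 ± 0.08 SE (adjusted p = 0.00123) and 0.35 ± 0.09 SE (adjusted p = 0.00315), while Lgr5 had 0.14 ± 0.14 SE and was not called. The other 5 genes of that list were too low to test. Of the 3 tested, 2 were called in NT+/+ mice and 0 in NT-/- mice (21.6% and 25.2% of all genes), and none in the difference between the effects. Genes that handle the proteins before they reach the surface were lower in part: Wls, the carrier of Wnt proteins, fell by 0.28 (adjusted p = 0.00582), the cargo receptor gene Tmed5 fell by 0.25 (adjusted p = 0.0142), and 3 of 5 secretion genes were not called. Mesd, the chaperone that LRP5 and LRP6 need to fold, fell by 0.37 (adjusted p = 0.00186), the opposite sign to Lrp5 RNA.

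Within the pathway lists, the largest values among the genes named here were those of genes listed as inhibitors. Of 17 listed, 6 were tested, and 4 rose and 1 fell. Dkk3, of the dickkopf family, rose by 1.34 ± 0.16 SE (adjusted p = 2.11e-06), and whether it inhibits Wnt signals in crypts was not tested. Notum, which strips the lipid from Wnt proteins, rose by 1.22 ± 0.38 SE (adjusted p = 0.0142). Kremen1, a surface partner of some dickkopf proteins, rose by 0.36 ± 0.07 SE (adjusted p = 0.000474). The level of Notum was low, and its ranges overlapped. It was 0.162 to 0.959 CPM in ad libitum and 0.289 to 3.02 CPM in fasted mice. Sfrp5, a secreted decoy for Wnt proteins, fell by 1.73 (adjusted p = 2.88e-05), from 1.73 to 6.98 CPM in ad libitum mice to 0.695 to 2.43 CPM in fasted mice.

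Inside the cell, 16 of 16 genes that act next to the receptors were tested, and 3 were higher and 1, Mesd, lower. The increases were small: 0.20 for Dvl1, 0.19 for Axin1 and 0.17 for Gsk3a. Dvl1 had 0.32 in NT+/+ mice (edgeR adjusted p = 0.00862) and 0.08 in NT-/- mice (edgeR adjusted p = 0.54), a difference that was not called. Of the nuclear partners of β-catenin, Tcf7 rose by 0.58 ± 0.08 SE (adjusted p = 9.45e-06), Lef1 by 0.91 ± 0.22 SE (adjusted p = 0.00231) and Bcl9l by 0.40 ± 0.06 SE (adjusted p = 1.2e-05), and Pygo2 fell by 0.24 (adjusted p = 0.0498). Of 16 target genes, 7 were higher and 3 lower, where 19.2% of all genes were higher and 20.2% lower, and 4 of the 7 (Tcf7, Notum, Znrf3 and Rnf43) stand in another list too. Sp5 rose by 0.80 ± 0.11 SE (adjusted p = 1.55e-05) and Nkd1, a feedback inhibitor, by 0.86 ± 0.14 SE (adjusted p = 8.5e-05), and Ccnd1, which encodes cyclin D1, fell by 0.93 (adjusted p = 1.2e-05).

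**Figure D5:**
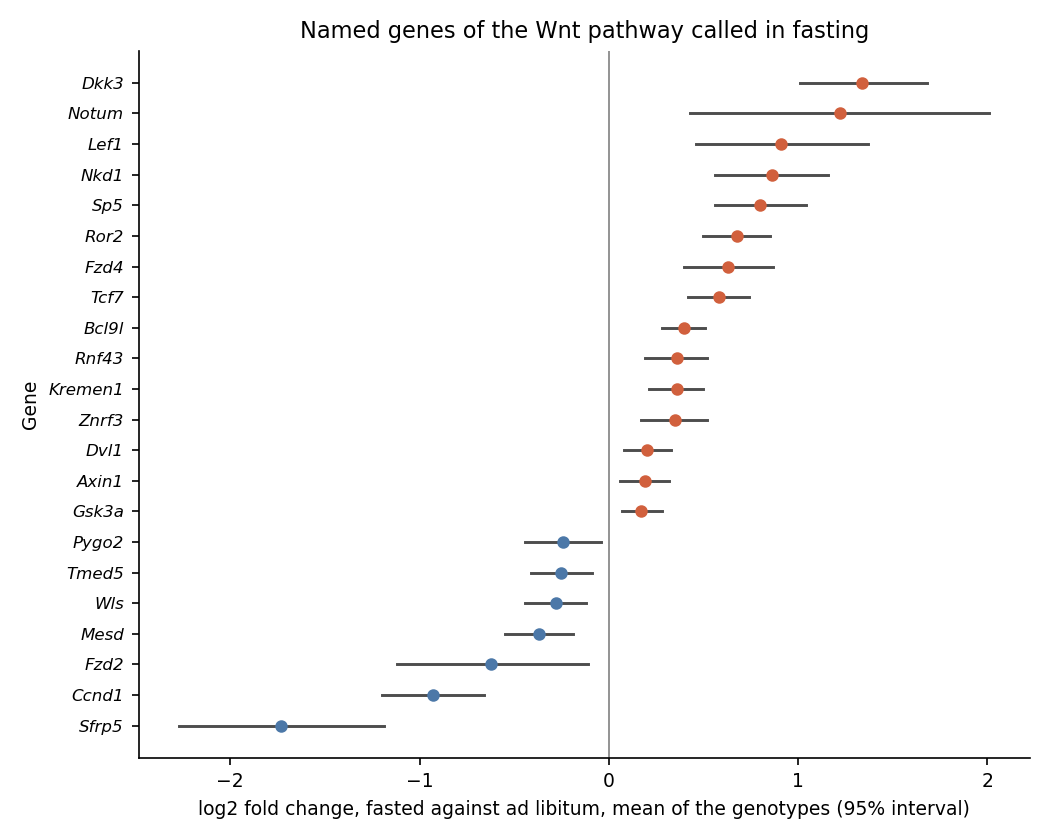
Log2 fold change of fasting in the mean of the genotypes, with its 95% confidence interval, for the named pathway genes that were called, ordered by size. Sfrp5 lies lowest at −1.73 and Dkk3 highest at 1.34; Lrp5, the called gene among the 9, had 0.23 on the same scale.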

How the data were processed

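By the methods of the study, crypts were freed with EDTA from the small intestine without its most distal part. Total RNA was depleted of ribosomal RNA and read from a single end. The authors trimmed the reads (Trimmomatic 0.39) and assigned them to Ensembl transcripts of GRCm38 with RSEM. The deposited files give for each gene the RSEM expected count, which is not normalized, and the TPM, which the authors' RSEM run scaled per transcript length; the deposited effective length, another value, served to compare levels per kilobase. The RSEM version and the strand setting are not given in the sources used here. Proteins were not analysed here.

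Expected counts were rounded and tested with edgeR 4.0.16 (R 4.3.3; TMM normalization, filterByExpr, quasi-likelihood test, Benjamini-Hochberg adjustment over 17875 genes) in 1 fit of the 4 groups without covariates, with 15 residual degrees of freedom. Symbols were matched for 55141 of 55487 gene IDs, and coordinates come from GENCODE on GRCm38. Standard errors were taken from the log2 fold change and the F statistic. CPM use TMM library sizes, and log2 CPM a prior count of 2. The fit was tested on simulated data. P values of this fit set each difference against the spread between mice of the same group, without pairing mice by number. They are also kept from falling below those of a test with counting error only. The limit given for a count of 0 covers counting error only.

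Members and gene lists were chosen with earlier results of these data known. Named genes were all 9 members, up to 4 genes per pathway list with the smallest p in fasting averaged over the genotypes, marker sums with up to 3 markers each, and the 2 genes most like each tested member; those of Wnt9b are not reported here. Defa17 falls under the marker rule.

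Mice of different groups share a number in their titles and, for 2 mice differently, in their file names. Within each direct comparison, deviations of mice with the same file number correlated at r of at least 0.165 (fasting in NT+/+), 0.123 (fasting in NT-/-), 0.117 (genotype, ad libitum) and 0.124 (genotype, fasted). For the title numbers the lowest r was −0.0648 for fasting in NT-/- and 0.00592 for genotype with food. Over all 27 pairs of the same file number, the lowest r was 0.0672 and 24 were over 0.1. The sources do not say what the number marks. Since every pair in the direct comparisons was over 0.1, the file number was taken to pair the mice, and fits with either number as a block are given where a call changed.

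Alternatives were upper quartile and RLE scaling, DESeq2 1.42.0, the likelihood ratio test, no filter, at least 10 counts in every mouse, both blocks, sex as a covariate (which drops the NT-/- Fast mouse with no sex label), the mouse with disagreeing labels moved to NT-/- Fast, only the groups compared, each mouse left out, and, added after the data were seen, leaving out the 2 shallowest libraries.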

Additional observations from a re-analysis of the deposited data

Results flagged for a closer look

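In each group of 4 or 5 mice, the CPM of each of the 9 genes was checked for a mouse far from the rest (Dixon's test at the 95% level). Of 36 sets, 3 held such a mouse, and chance gives about 1 in 20. Wnt3 was 27.7 CPM (518 counts) in replicate 1 of NT-/- Fast, with the nearest mouse at 15.4 CPM. Wnt9b was 0.586 CPM in replicate 4 of NT-/- AL, with the nearest at 0.433 CPM, a gap that rests on 11 counts. Fzd7 was 27.3 CPM (241 counts) in replicate 2 of NT-/- Fast, 1 of the 2 shallowest libraries, with the nearest at 21.0 CPM.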

How the results depend on the processing

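Depth limits Wnt6, Wnt9b and Wnt11, which had at most 18 counts in any mouse, and Wnt6 and Wnt9b were not tested where at least 10 counts were required in every mouse. Of the 8 genes, 1 was called for fasting in NT+/+ mice; the number was 2 (Wnt3 and Lrp5) with DESeq2, with the replicate block by title or file number, and with only the groups compared, 0 with no filter on low counts, and 0 to 1 with 1 mouse left out. For fasting in NT-/- mice the number of members called was 1 (Lrp5) without the 2 shallowest libraries and 0 to 1 with 1 mouse left out. Without those libraries, 1968 of all genes were higher and 1876 lower. For the mean of the genotypes the number of members called was 2 with DESeq2 and the title block and 1 to 2 with 1 mouse left out. It was 3 (Lrp6 added) with the file number block and without the 2 shallowest libraries. Over all genes, DESeq2 called 3656 higher and 3495 lower in this mean, and the title block 3858 higher and 4290 lower. Without the 2 shallowest libraries, 3266 were higher and 3456 lower. The calls over all genes moved as well. Apart from single mice left out, they numbered 3077 to 5484 for fasting in NT+/+ and 3670 to 5672 for fasting in NT-/-. For the mean they numbered 6407 to 8252. Some alternatives tested other numbers of genes. No member was called between the genotypes or in the difference between the effects of fasting under any alternative run. The replicate block changed no other call of a member. Over all genes, the genotypes differed at 1 gene ad libitum (3 with DESeq2 or the likelihood ratio test) and at 1 gene fasted (101 with DESeq2, 41 with the likelihood ratio test, 4 without replicate 1 of NT-/- Fast), and at 0 genes in each diet with at least 10 counts in every mouse or with the mouse of disagreeing labels moved. The likelihood ratio test called 1 gene for the difference between the effects of fasting.

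Differences near 0 changed sign, and the cause was not tested. With the title block, log2 values were −0.021 for Wnt6 (fasting, NT+/+), 0.014 for Lrp5 and 0.021 for Lgr4 (genotype, ad libitum). With the file number block they were −0.035 for Wnt6 (fasting, NT+/+), −0.053 for Fzd5, 0.025 for Lrp5 and −0.00033 for Lrp6 (genotype, ad libitum), 0.043 for Fzd5 (difference between the effects) and −0.0061 for Wnt9b (mean). Without the 2 shallowest libraries they were 0.032 for Lgr4 (fasting, NT-/-), 0.062 for Fzd5, −0.072 for Fzd7, 0.028 for Lrp5 and 0.045 for Lgr4 (genotype, fasted), 0.053 for Fzd5, 0.030 for Lrp5 and 0.053 for Lgr4 (difference) and 0.0060 for Lgr4 (mean). With sex as a covariate they were −0.016 for Fzd5 and 0.013 for Lrp5 (genotype, ad libitum) and −0.011 for Lrp6 (difference). With the mouse of disagreeing labels moved they were 0.018 for Fzd5 and −0.049 for Fzd7 (genotype, fasted), 0.0085 for Fzd5 and 0.0060 for Lgr4 (difference) and −0.015 for Wnt9b (mean). With no filter they were 0.0065 for Lrp5 and 0.00066 for Lgr4 (genotype, ad libitum), and with RLE scaling or DESeq2 0.0032 for Fzd5 (genotype, fasted).

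With 1 mouse left out, the ranges that crossed 0 were, for fasting in NT+/+, −0.19 to 0.24 for Wnt6, −0.068 to 0.039 for Fzd7 and −0.13 to 0.049 for Lgr4, and for fasting in NT-/-, −0.088 to 0.36 for Wnt3. For genotype ad libitum they were −0.036 to 0.054 for Fzd5, −0.039 to 0.035 for Lrp5, −0.0062 to 0.067 for Lrp6 and −0.080 to 0.048 for Lgr4. For genotype in fasted mice they were −0.087 to 0.077 for Fzd5, −0.094 to 0.052 for Fzd7, −0.0029 to 0.10 for Lrp6 and −0.14 to 0.055 for Lgr4. For the difference they were −0.10 to 0.068 for Fzd5, −0.025 to 0.081 for Lrp6 and −0.14 to 0.063 for Lgr4, and for the mean −0.019 to 0.10 for Wnt9b. On deviations from group means, the likeness r was 0.92 for Wnt3 and Fam117a, 0.78 for Wnt6 and Il17ra, 0.93 for Lrp5 and Nucb1, 0.88 for Lrp5 and Ncln, 0.85 for Lrp6 and Hipk3, 0.84 for Lrp6 and Phf3, and 0.86 for Lgr4 and Tnks2.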
